A study of Mus musculus with 192 samples.

Results

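Parp9, Parp10, Parp12, Parp14, Dtx3l and Zc3hav1, which interferon is known to induce, were followed through 64 groups of mouse bone marrow-derived dendritic cells. They were taken by symbol from the table of UMI counts, in which a unique molecular identifier (UMI) marks 1 original cDNA molecule. All 6 were among the 23481 listed genes and among the 4720 genes that passed the filter on low counts. The cells came from the bone marrow of female C57BL/6J mice of 6 to 8 weeks, were grown with GM-CSF, and were plated at 100000 cells per well. Every group was read after 6 h with 3 libraries. Ctrl is the control group of the labels, 7 groups received 1 ligand of a pattern recognition receptor, 21 received 2 ligands and 35 received 3 ligands. The ligands are spelled as in the labels: PAM, LPS (bacterial lipopolysaccharide), HMW, Zymosan (listed there as depleted), SeV, cGAMP (3',3'-cGAMP, a cyclic dinucleotide) and CpGB. The labels do not say whether the 3 libraries of a group came from separate mice or cultures, so p-values measure the spread between these libraries, which may be technical.

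The PARP family attaches ADP-ribose, taken from NAD, to proteins and nucleic acids. Parp10, Parp12 and Parp14 transfer single ADP-ribose units. Parp9 carries macrodomains, which bind ADP-ribose, and forms a complex with Dtx3l, a ubiquitin ligase of the Deltex family. Zc3hav1 encodes the zinc finger antiviral protein, also named PARP13, which binds viral RNA rich in CpG and lacks transferase activity. In myeloid cells these genes belong to the type I interferon response: sensors of microbial components induce interferon beta, secreted interferon acts through its receptor, and transcription factors that include Stat2 and Irf9 switch on target genes.

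Positions are those of GENCODE on GRCm38, the assembly also called mm10, which is the build in the submitters' processing notes. Parp9 lies at chr16:35938470-35972605 on the plus strand, and Dtx3l at chr16:35926511-35939151 on the minus strand. Both genes start toward each other and overlap over 682 bases. Parp14 lies at chr16:35832874-35871544 on the minus strand, 54966 bases from Dtx3l. Parp12 (chr6:39086410-39118349, minus strand) and Zc3hav1 (chr6:38305286-38354603, minus strand) are 731806 bases apart. Parp10 (chr15:76231174-76243441, minus strand) shares 1401 bases with Plec on the same strand. The sources used here do not say whether counting used the strand, so reads from the overlap of Parp9 and Dtx3l cannot be assigned with certainty. Reads from the overlap of Parp10 and Plec could not be told apart by strand in any case. Plec had 2795 UMIs in all, and its part in the Parp10 counts was not tested. The RefSeq promoter table held 3 of the 6 genes. The 250 bases before the start of Dtx3l (chr16:35939028-35939277), Parp12 (chr6:39118350-39118599) and Zc3hav1 (chr6:38354604-38354853) are shown because LPS and SeV raised all 3 genes and because interferon-responsive promoters are known for elements built from GAAAC. The RefSeq start of Dtx3l lies inside the gene as GENCODE places it, so part of the window shown for Dtx3l is within that gene model. Each is read on the gene's minus strand, 5′ to 3′, from RefSeq on GRCm38.p6, with GAAAC in capitals.
Dtx3l: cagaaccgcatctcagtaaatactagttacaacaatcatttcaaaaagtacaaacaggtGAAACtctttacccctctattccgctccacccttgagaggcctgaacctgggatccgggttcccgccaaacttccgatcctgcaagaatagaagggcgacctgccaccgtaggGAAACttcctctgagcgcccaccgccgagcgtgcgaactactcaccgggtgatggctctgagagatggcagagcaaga
Parp12: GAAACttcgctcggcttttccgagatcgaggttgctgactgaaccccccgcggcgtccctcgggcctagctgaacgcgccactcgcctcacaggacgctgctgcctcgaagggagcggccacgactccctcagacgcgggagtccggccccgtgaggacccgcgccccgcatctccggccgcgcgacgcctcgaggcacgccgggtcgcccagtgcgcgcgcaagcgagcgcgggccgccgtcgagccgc
Zc3hav1: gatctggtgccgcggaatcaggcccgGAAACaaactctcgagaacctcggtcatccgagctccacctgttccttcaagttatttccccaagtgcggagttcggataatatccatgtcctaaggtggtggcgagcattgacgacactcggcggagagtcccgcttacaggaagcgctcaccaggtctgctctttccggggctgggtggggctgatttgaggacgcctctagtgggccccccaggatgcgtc
GAAAC stood on the printed strand at 2 places before Dtx3l, 1 before Parp12 and 1 before Zc3hav1. Searched on both strands in the 250 bases before the start, GAAAC stood in 39.7% of 32851 promoters. The interferon-stimulated response element, searched as GAAA, any 2 bases and GAAA, had 0 matches before these 3 genes and stood in 2.98% of all promoters. The interferon-gamma activated site, searched as TTCNNNGAA, had 0 matches before them and stood in 7.02% of all promoters. The first of these patterns can share bases with GAAAC.

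Library totals ran from 46564 to 610234 UMIs with a median of 171616.5, and the 3 Ctrl libraries held the fewest of any group (73430 ± 14390, SD, n = 3). No member was at 0 in any library, but Ctrl rests on few molecules: 17 UMIs of Parp9, 10 of Parp10, 14 of Parp12, 30 of Parp14, 43 of Dtx3l and 7 of Zc3hav1 over its 3 libraries. The labelled cell type was checked with a list of 10 myeloid and dendritic cell markers in the table, all 10 detected, whose summed group means lay between 6788 and 10720 CPM, the count scaled to a common library total. The list holds Csf1r (26397 UMIs in all), Cd14 (38471), Itgam and Mrc1, which macrophages also express, beside Itgax, Ccr7 and class II genes, and Flt3 had 95 UMIs in all, so the sum does not tell dendritic cells from macrophages. The summed neutrophil markers lay between 519.9 and 961 CPM, those of T, B, NK and mast cells reached at most 2.95, 18.7, 1.70 and 8.73 CPM, and Cd3e, Gzma and the globin markers Hbb-bs, Hbb-bt and Hba-a1 were at 0. The sum of 4 plasmacytoid dendritic cell markers ran from 143 CPM with Zymosan to 1336 CPM with PAM + LPS, and was 162 CPM in Ctrl. That sum was led by Bst2 (22005 UMIs over all libraries), itself an interferon-induced gene, and without Bst2 ran from 21.2 to 232.5 CPM. Siglech had 35 UMIs in all, and the part of such cells in the results was not tested. In bulk RNA, more cells of a type and more RNA per cell cannot be told apart.

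LPS and SeV raised all 6 genes above Ctrl, cGAMP and CpGB raised 5 each, and PAM, HMW and Zymosan raised 2, 2 and 1. A gene was called here at a Benjamini-Hochberg adjusted p under 0.05 in edgeR's quasi-likelihood test with a log2 fold change of at least 1. The percentage of all tested genes called higher was 14.6% with LPS, 10.5% with SeV, 11.7% with cGAMP, 10.8% with CpGB, 8.01% with PAM, 0.953% with HMW and 4.43% with Zymosan. The median log2 change of the 6 genes was 2.23 with LPS, 2.10 with SeV, 2.10 with cGAMP and 1.89 with CpGB, beside medians of all tested genes of -0.06, -0.08, -0.09 and -0.03. With PAM, HMW and Zymosan it was 0.77, 0.89 and 0.79, and the medians of all genes were 0.03, 0.03 and 0.02. LPS, SeV, cGAMP and CpGB are called inducing ligands below, a split known from earlier results of these data. In 63 conditions no member was called lower, by edgeR or DESeq2, and none at an unadjusted p under 0.05 with the same fold. Of 378 differences from Ctrl, 374 were positive. Means below Ctrl included Parp9 with Zymosan (47.68 against 69.11 CPM) and Parp10 with PAM + Zymosan (35.25 against 40.54 CPM). Ctrl held 17 and 10 UMIs of these genes, which left little room to call a fall.

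**Figure D1:**
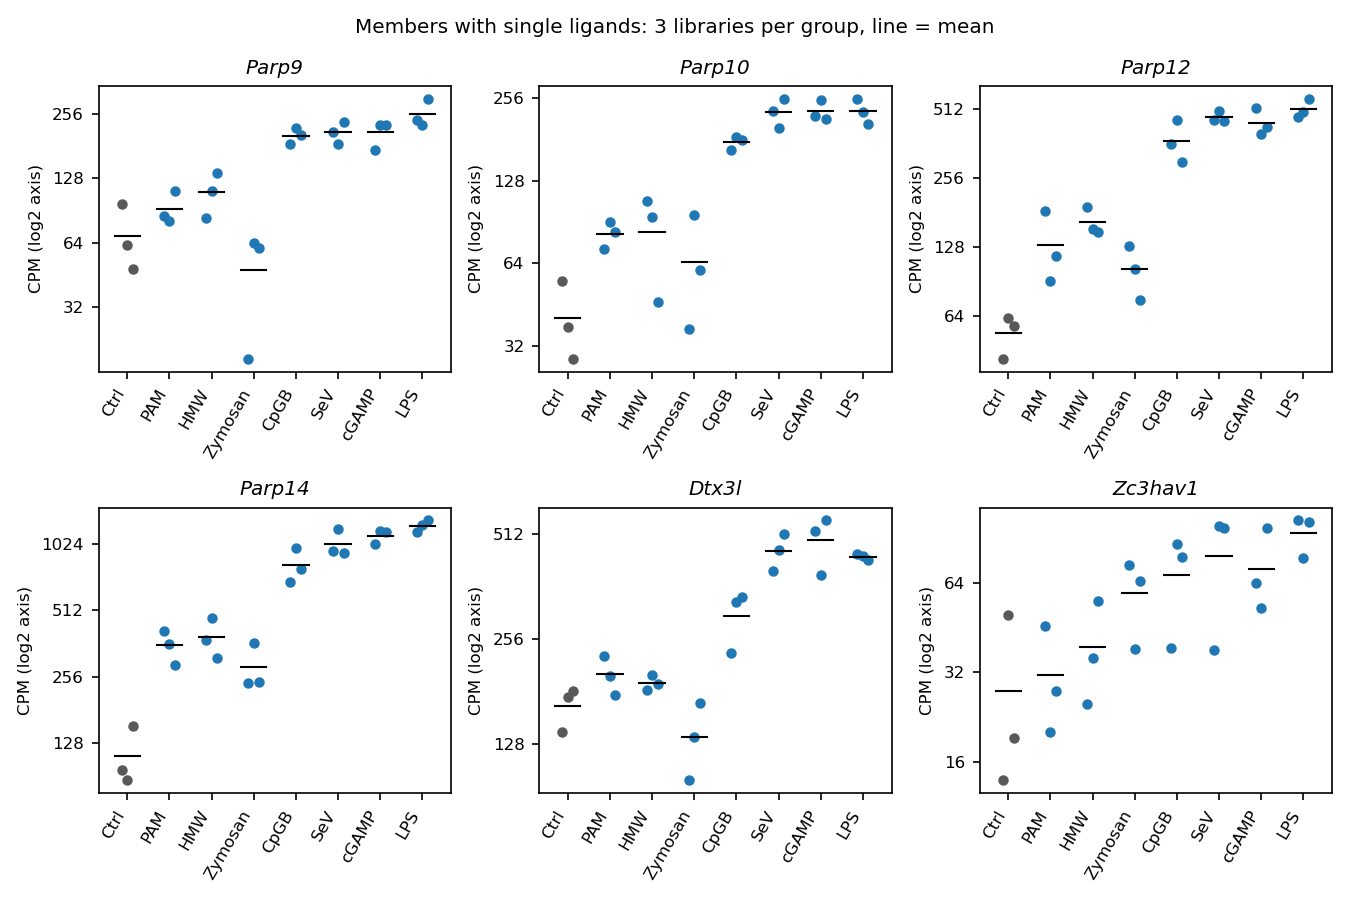
CPM of each gene on a log2 axis in Ctrl and with each single ligand, with 1 point per library and a line at the mean of 3. The 3 LPS libraries of Parp14 lie at 1154, 1236 and 1302 CPM, far above its Ctrl libraries, whereas the Dtx3l libraries with Zymosan mix with Ctrl.

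Among the ADP-ribosyltransferases, Parp14 stood at 97.0, 87.3 and 153.6 CPM in Ctrl and at 1154, 1236 and 1302 CPM with LPS. The groups were far apart, with a log2 fold change of 3.40 ± 0.21 (SE) and an edgeR adjusted p of 1.1e-36. Parp14 also rose with cGAMP (3.26 ± 0.21), SeV (3.12 ± 0.22) and CpGB (2.83 ± 0.22). It was the one member that every single ligand raised: HMW took it to 374, 471 and 311 CPM (log2 change 1.73 ± 0.25), PAM to 413, 362 and 289 CPM (1.59 ± 0.25) and Zymosan to 239, 365 and 243 CPM (1.27 ± 0.26). Every one of these libraries lay above the 3 Ctrl libraries, and the edgeR adjusted p was 3.7e-08, 4.3e-08 and 0.00013. Without replicate 2 of all groups, the Zymosan value fell short of the call, at 0.92.

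Parp12, whose protein acts at the Golgi and in stress granules, stood at 41.6, 62.4 and 57.6 CPM in Ctrl. LPS took it to 469, 493 and 564 CPM, a log2 change of 3.22 ± 0.28 (SE, edgeR adjusted p = 1.4e-22), with no overlap. SeV, cGAMP and CpGB raised it by 3.08 ± 0.29, 2.99 ± 0.29 and 2.75 ± 0.30. HMW (191, 153 and 149 CPM, 1.54 ± 0.34) and PAM (184, 90.5 and 117 CPM, 1.21 ± 0.36) raised it less, again without overlap with Ctrl, at edgeR adjusted p of 0.0039 and 0.015. The HMW call was lost without replicate 1 (1.39, adjusted p = 0.077) or 3 (1.67, 0.059) of all groups, and with DESeq2 (1.48, 0.058). The PAM call was lost without PAM replicate 1 (log2 0.95), Ctrl replicate 1 (1.10, adjusted p = 0.068) or Ctrl replicate 3 (1.28, adjusted p = 0.057), with DESeq2 (1.08, 0.073) and with scaling by library totals alone (1.02, 0.051). Parp10 rose with SeV (2.54 ± 0.42), cGAMP (2.54 ± 0.42), LPS (2.51 ± 0.41) and CpGB (2.17 ± 0.43). Its Ctrl libraries held 55.4, 37.4 and 28.8 CPM, and its libraries with these 4 ligands between 165 and 253 CPM, so that the groups did not overlap. PAM and HMW gave Parp10 log2 differences of 1.07 and 1.01, which did not pass (edgeR adjusted p = 0.14 and 0.53).

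For the Parp9 and Dtx3l pair the values were smaller. Parp9 stood at 97.0, 62.4 and 48.0 CPM in Ctrl and at 238, 227 and 300 CPM with LPS, a log2 change of 1.95 ± 0.34 (edgeR adjusted p = 3.5e-07). SeV, cGAMP and CpGB raised it by 1.67 ± 0.36, 1.67 ± 0.36 and 1.61 ± 0.35, and with PAM, HMW and Zymosan its libraries overlapped those of Ctrl. Dtx3l stood at 138.5, 174.6 and 182.4 CPM in Ctrl. cGAMP took it to 523, 392 and 559 CPM (log2 change 1.54 ± 0.24), SeV to 401, 460 and 511 CPM (1.47 ± 0.24) and LPS to 447, 443 and 430 CPM (1.39 ± 0.24). With CpGB the 3 Dtx3l libraries (233, 327 and 337 CPM) lay above Ctrl at an edgeR adjusted p of 0.0051, but the log2 difference of 0.88 ± 0.26 was short of 1. That value passed 1 when CpGB replicate 1, Ctrl replicate 2 or Ctrl replicate 3 was left out (1.12, 1.02 and 1.07).

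Zc3hav1, the RNA-binding member, was the least precisely measured. Its Ctrl libraries held 13.9, 49.9 and 19.2 CPM, from 1, 4 and 2 UMIs. LPS took it to 104, 77.6 and 103 CPM, a log2 change of 1.77 ± 0.50 with an edgeR adjusted p of 0.0030 and no overlap, which was lost without replicate 3 of all groups (1.45, adjusted p = 0.10). SeV (38.2, 99.6 and 98.5 CPM, 1.59 ± 0.52, adjusted p = 0.018) and CpGB (38.8, 86.8 and 78.4 CPM, 1.40 ± 0.53, adjusted p = 0.044) also passed, although their lowest library lay below the highest of Ctrl. cGAMP (64.2, 52.6 and 98.2 CPM, 1.38 ± 0.54) missed at an adjusted p of 0.053. These calls depended on single libraries and on the settings. The SeV call was lost without Ctrl replicate 1 (log2 1.39, adjusted p = 0.083), Ctrl replicate 3 (1.40, 0.11) or SeV replicate 3 (1.47, 0.088), and with DESeq2 (1.50, 0.076). The CpGB call was lost without Ctrl replicate 1 (1.23, adjusted p = 0.13), Ctrl replicate 3 (1.24, 0.17), CpGB replicate 2 (adjusted p = 0.12) or CpGB replicate 3 (1.37, 0.095). It was also lost with RLE in place of TMM scaling (1.30, adjusted p = 0.065), totals alone (1.18, 0.099), no filter on low counts (1.59, 0.062) and DESeq2 (1.31, 0.12). The cGAMP value passed without Ctrl replicate 2 (2.12, adjusted p = 0.019), cGAMP replicate 1 (1.49, 0.049) or cGAMP replicate 2 (1.66, 0.025).

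Over all 63 conditions, 344 of the 378 combinations of a member and a condition were called higher, where 14.3% of all tested genes were called higher and 9.03% lower. Conditions holding an inducing ligand gave 324 of 336 calls, where 9.43% to 18.8% of all tested genes were called higher per condition. Those of PAM, HMW and Zymosan alone gave 20 of 42, where 0.953% to 13.7% of all tested genes were. The split of the ligands was known from earlier results of these data, so this difference is partly built in. Parp14 was called in 63 conditions, Parp12 in 61, Parp9 and Parp10 in 59 each, Zc3hav1 in 53 and Dtx3l in 49. The median log2 change per gene was 3.37 for Parp14, 3.21 for Parp12, 2.12 for Parp10, 1.96 for Zc3hav1, 1.85 for Parp9 and 1.31 for Dtx3l. Of the 34 combinations that were not called, 14 belonged to Dtx3l and 10 to Zc3hav1. Among conditions with an inducing ligand, the fewest calls came with PAM + CpGB, HMW + CpGB and PAM + HMW + CpGB, with 4 of 6 members each (9.43%, 10.1% and 9.94% of all genes were called higher). When all libraries were thinned to equal totals, 251 calls were made. The single-ligand calls lost there were those of Parp9 with SeV (0.95) and cGAMP (0.97), Parp10 with CpGB (1.39), Dtx3l with LPS (0.89), Parp12 with PAM (0.96) and HMW (1.32), Parp14 with Zymosan (0.91), and Zc3hav1 with SeV (1.12) and CpGB (0.78).

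**Figure D2:**
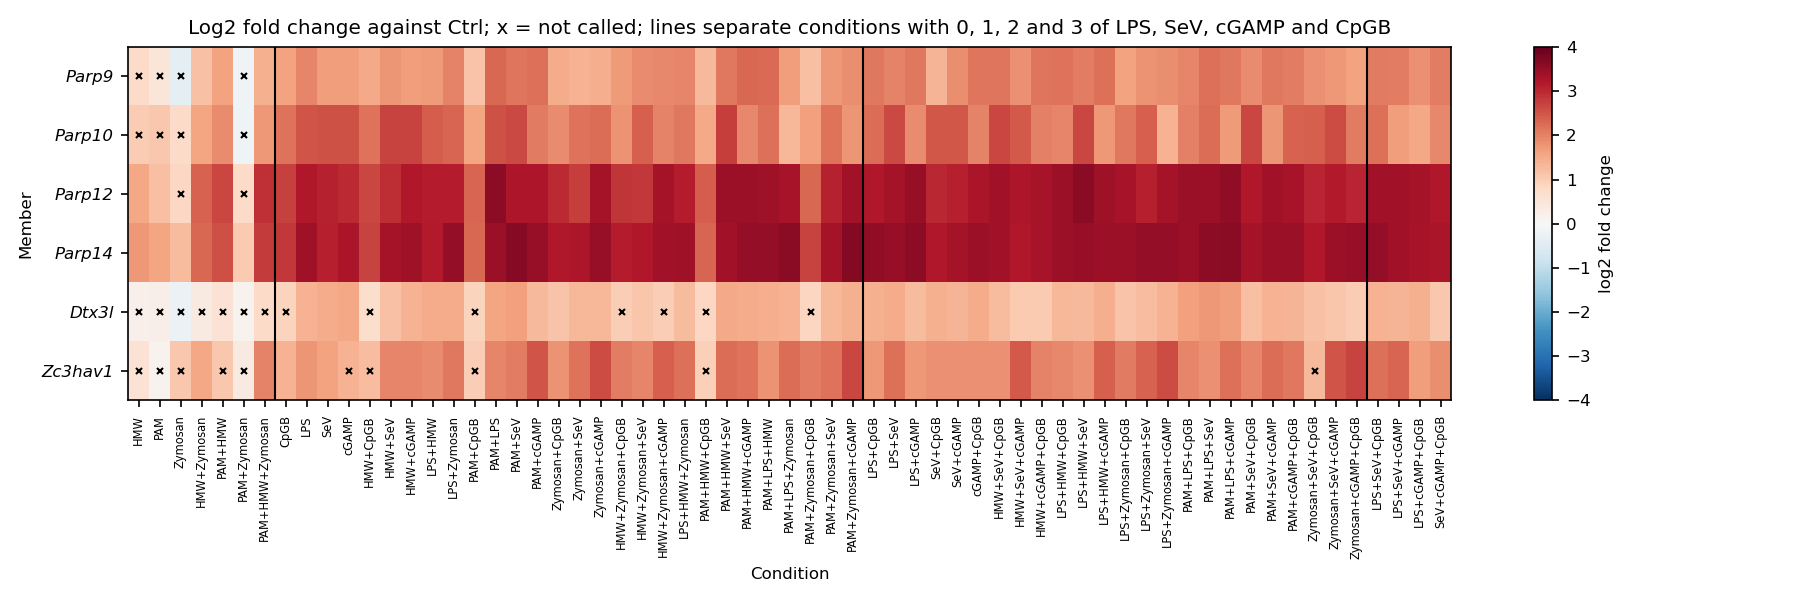
Log2 fold change against Ctrl (colour) of the 6 genes in the 63 conditions, ordered by how many inducing ligands they hold; a cross marks a value that was not called. Crosses gather at the left among PAM, HMW and Zymosan conditions and in the Dtx3l row, and the Parp14 row has none.

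With an inducing ligand present, group means of Parp14 lay between 575.8 CPM (PAM + CpGB) and 1504 CPM (PAM + Zymosan + cGAMP) in the 56 such conditions, and those of Parp12 between 270.2 CPM (PAM + Zymosan + CpGB) and 671 CPM (LPS + HMW + SeV). Parp9 ran from 145.7 CPM (PAM + CpGB) to 335 CPM (PAM + HMW + cGAMP), Parp10 from 100.1 CPM (LPS + Zymosan + cGAMP) to 276 CPM (PAM + HMW + SeV), Dtx3l from 272 CPM (HMW + CpGB) to 557 CPM (PAM + LPS + SeV), and Zc3hav1 from 53.4 CPM (PAM + HMW + CpGB) to 184 CPM (Zymosan + cGAMP + CpGB). When the 64 groups were ordered by mean, all 63 pairs of neighbours had overlapping libraries for Parp9, Parp10, Dtx3l and Zc3hav1, 61 for Parp12 and 60 for Parp14. Parp14 thus had 3 steps without overlap: PAM + Zymosan above Ctrl, HMW + Zymosan above HMW, and SeV above PAM + HMW + Zymosan. Parp12 had 2, with PAM + Zymosan above Ctrl and PAM + Zymosan + CpGB above HMW. Neighbours in an order of means are close to each other, and such steps were not counted over all tested genes. The counts therefore describe the order and set no member apart from other genes. SeV was in 8 of the 10 highest groups of Parp10, LPS in 8 of those of Parp12, and cGAMP in 9 and Zymosan in 7 of those of Zc3hav1, whereas 0 groups with Zymosan were among the 10 highest of Parp9 or Parp12. Of the 56 conditions, 22 hold SeV, 22 LPS, 22 cGAMP and 18 Zymosan. These counts were picked among the larger and smaller ones, from groups whose libraries overlap, so they are a description.

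PAM, HMW and Zymosan, weak alone, differed in combination: PAM + HMW raised 4 of 6 members (10.7% of all genes), HMW + Zymosan 5 (7.5%), PAM + Zymosan 1 (8.11%) and all 3 ligands 5 (13.7%). Parp14 reached 681, 845 and 574 CPM with PAM + HMW and 490, 508 and 690 CPM with HMW + Zymosan, but 210.5, 250.4 and 254.7 CPM with PAM + Zymosan. The PAM + HMW libraries lay above all libraries of either ligand alone, by log2 0.98 ± 0.15 over PAM and 0.85 ± 0.15 over HMW (SE, edgeR adjusted p of the larger value = 8.3e-06). With PAM + Zymosan the log2 difference was -0.54 ± 0.19 against PAM (adjusted p = 0.061) and -0.22 ± 0.20 against Zymosan (0.69). PAM + Zymosan still passed against Ctrl for Parp14, at 1.05 ± 0.27 (adjusted p = 0.0020), and fell under the fold of the call without Ctrl replicate 1 (0.95) or Ctrl replicate 2 (0.91), and with RLE scaling (0.90). All 3 ligands together took Parp14 to 917, 747 and 809 CPM, log2 2.81 ± 0.22 above Ctrl and 0.52 ± 0.13 above HMW + Zymosan (adjusted p = 0.0024). Against PAM + HMW that triplet differed by 0.24 ± 0.13 (adjusted p = 0.30).

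Parp12 followed the same order. It stood at 365, 402.5 and 303 CPM with PAM + HMW, 254, 277 and 303 CPM with HMW + Zymosan, 63.2, 103 and 99.9 CPM with PAM + Zymosan and 483, 296 and 479 CPM with all 3. PAM + HMW exceeded PAM by log2 1.47 ± 0.20 and HMW by 1.14 ± 0.19 (edgeR adjusted p of the larger value = 1.2e-06). PAM + Zymosan, at 0.75 ± 0.39 above Ctrl, was not called (adjusted p = 0.25). Parp9 rose above Ctrl with PAM + HMW (183, 224 and 197 CPM, 1.60 ± 0.35), and Zc3hav1 rose with HMW + Zymosan (82.7, 82.6 and 80.3 CPM, 1.55 ± 0.51) and with all 3 ligands (115, 117 and 102.5 CPM, 2.00 ± 0.47). The HMW + Zymosan call of Zc3hav1 was lost without Ctrl replicate 1 (1.36, adjusted p = 0.10) or Ctrl replicate 3 (1.39, adjusted p = 0.13), and without HMW + Zymosan replicate 3 the calls of Parp9 (1.01, adjusted p = 0.11) and Parp10 (1.24, adjusted p = 0.13) there were lost. Without Ctrl replicate 3 those of Parp9 (1.01, adjusted p = 0.12) and Parp10 (1.43, adjusted p = 0.072) were lost too. After thinning, the calls of Parp9 and Parp10 were lost with PAM + HMW (0.73 and 0.59) and with all 3 ligands (0.73 and 0.90), as were those of Zc3hav1 with all 3 (1.54, adjusted p = 0.065) and of Parp9 (0.50) and Zc3hav1 (1.31, adjusted p = 0.20) with HMW + Zymosan. Parp9 with all 3 was also lost without replicate 3 of all groups (1.09, adjusted p = 0.068). Dtx3l was called in 0 of these 7 conditions, with its highest mean (284 CPM) with all 3 ligands. Totals alone or DESeq2 also lost the HMW + Zymosan calls of Parp9 (0.97 and 1.06) and Zc3hav1 (adjusted p = 0.056 and 0.098). Ifnb1, the interferon beta gene, stood at 11.97 CPM in Ctrl (3 UMIs), 6.81 CPM with PAM + HMW (4 UMIs), 8.80 CPM with HMW + Zymosan (6 UMIs) and 25.1 CPM with all 3 (19 UMIs), so that both pairs lay below Ctrl on few molecules.

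**Figure D3:**
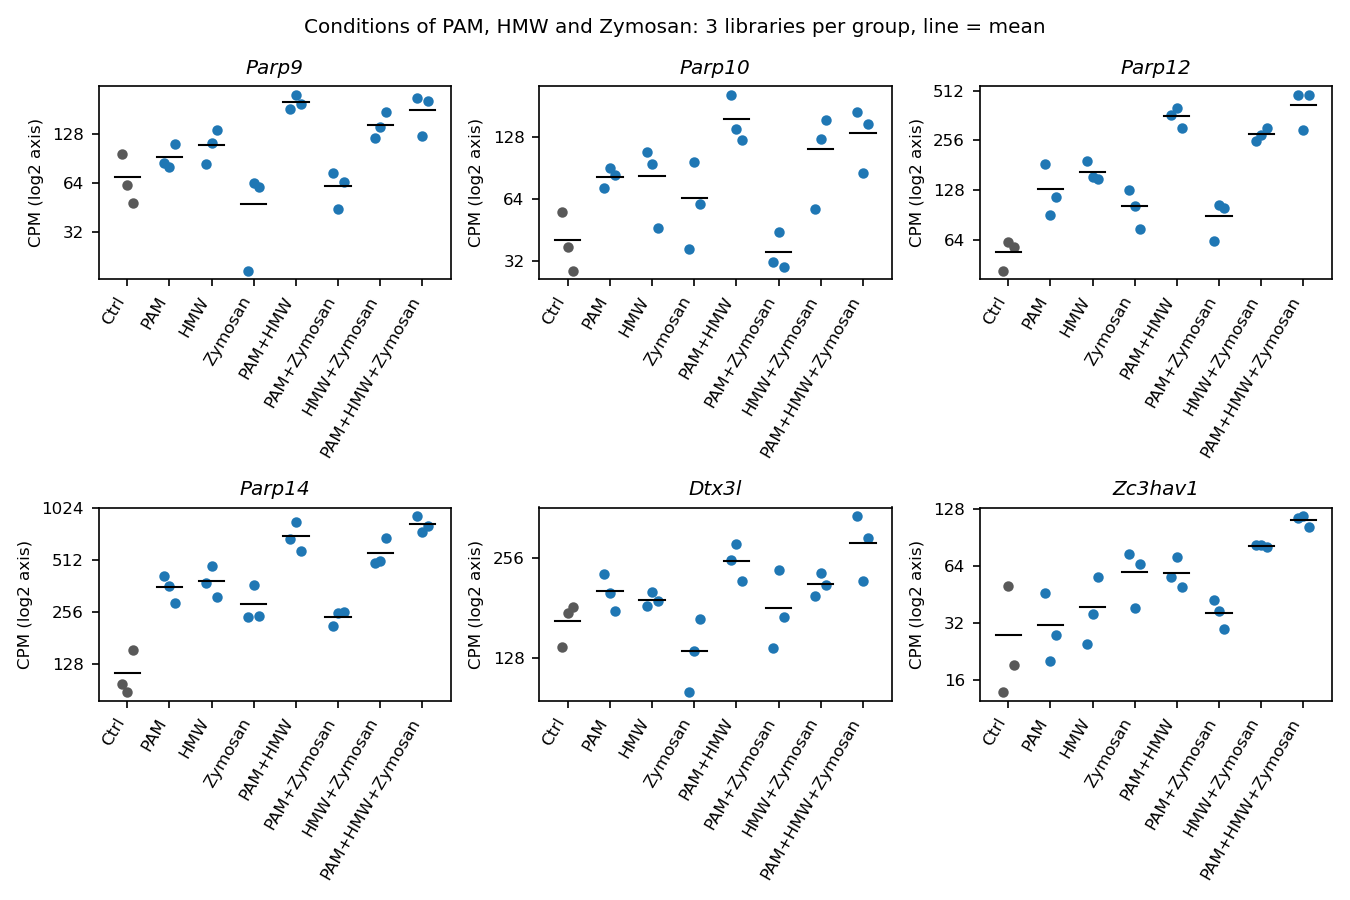
CPM of the 6 genes on a log2 axis in Ctrl and in the 7 conditions made of PAM, HMW and Zymosan, with 1 point per library and a line at the mean. Parp12 and Parp14 are higher in the 3 combinations that hold HMW than with any of the ligands alone, and PAM + Zymosan stays near the single ligands.

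Members exceeded both parts of a pair in few tests, but under the main settings in a larger share than all tested genes did. A pair was called when it differed from each of its ligands by a log2 change of at least 0.5 with the larger p passing 0.05 after adjustment. Of 126 combinations of a member and a pair, 8 were above both ligands, where 0.759% of all tests across genes were, and 0 were below both (2 at an unadjusted p under 0.05, 0 by DESeq2), where 0.0948% were. The 8 were Parp12 and Parp14 with PAM + HMW and with HMW + Zymosan, Parp9 with PAM + HMW, Parp14 with PAM + SeV, and Zc3hav1 with PAM + cGAMP and with Zymosan + cGAMP. Those of Parp12 and Parp14 with PAM + HMW held in every analysis that left out 1 library, with smaller differences of 1.02 to 1.35 and of 0.68 to 1.07. Zc3hav1 stood at 171, 173 and 169 CPM with Zymosan + cGAMP, above cGAMP by log2 1.24 ± 0.31 and above Zymosan by 1.54 ± 0.32 (edgeR adjusted p of the larger value = 0.0076), with no overlap. That call was lost without cGAMP replicate 2 (0.99, adjusted p = 0.18) or Zymosan + cGAMP replicate 3 (1.22, adjusted p = 0.054).

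The other calls were closer to the limit. Parp9 with PAM + HMW (smaller difference 0.83) passed at an edgeR adjusted p of 0.0499 and was lost without any of the 3 PAM + HMW libraries or without HMW replicate 1 or 2, at values between 0.75 and 0.93. Parp14 with PAM + SeV (1514, 1355 and 1514 CPM against 946, 1196 and 924 CPM with SeV, 0.52, adjusted p = 0.0070) fell under 0.5 without replicate 1 or 3 of PAM, SeV or PAM + SeV, at 0.41 to 0.50, and with RLE scaling (0.45). Parp12 with HMW + Zymosan (0.81, adjusted p = 0.0075) was lost without HMW replicate 3 (0.79) or HMW + Zymosan replicate 3 (0.75), and Parp14 there (0.56, adjusted p = 0.029) without HMW replicate 1 (0.56) or 3 (0.45) or HMW + Zymosan replicate 3 (0.38). Zc3hav1 with PAM + cGAMP (212, 109 and 164 CPM, 1.13, adjusted p = 0.018) was lost without PAM + cGAMP replicate 1 (0.87) or 3 (1.07) or cGAMP replicate 1 (1.06) or 2 (0.87). With DESeq2 or totals alone, Parp9 with PAM + HMW, Parp14 with PAM + SeV and with HMW + Zymosan, and Zc3hav1 with PAM + cGAMP were lost, as was Parp12 with HMW + Zymosan with totals alone, and after thinning 1 of the 8 passed, Parp14 with PAM + HMW. In the other direction, Parp14 was lower with PAM + CpGB (544, 703 and 480 CPM) than with CpGB alone (689, 980 and 789 CPM), by log2 -0.52 ± 0.15 (adjusted p = 0.031), although the libraries overlapped. That difference was lost without CpGB replicate 2 (-0.42, adjusted p = 0.28) or PAM + CpGB replicate 1 (-0.53, 0.097) or 3 (-0.45, 0.22). With Zymosan also present, PAM + Zymosan + CpGB lay below Zymosan + CpGB for Parp14 (-0.49 ± 0.13, adjusted p = 0.017) and Parp12 (-0.71 ± 0.17, adjusted p = 0.0042), in all libraries.

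For many pairs the response on the log2 scale was less than the sum of both ligands. The interaction (pair minus both ligands plus Ctrl, 0 where log2 effects add) was negative in 44 of 126 tests, where 3.5% of all tests across genes were negative, and positive in 0 (0 at an unadjusted p under 0.05, 0 by DESeq2), where 1.08% were. After thinning to equal totals, 24 were negative. Parp14 gave 17 of the 44, Parp12 10, Parp10 7, Parp9 5, Dtx3l 5 and Zc3hav1 0. The median interaction of Parp14 over the 21 pairs was -1.59. Its most negative values came with LPS + cGAMP (-3.09 ± 0.26), SeV + cGAMP (-3.06 ± 0.26) and LPS + SeV (-3.02 ± 0.26), which are nearly as large as the effect of either ligand alone. Parp12 gave -2.97 ± 0.34 with LPS + SeV, and Parp10 -3.15 ± 0.50 with LPS + cGAMP. Parp14 with PAM + HMW gave -0.75 ± 0.30, which did not pass (edgeR adjusted p = 0.64), and with PAM + Zymosan -1.81 ± 0.32 (adjusted p = 1.2e-05). The same 3 Ctrl libraries enter every interaction. No member exceeded, or fell below, all 3 pairs of a triplet: 0 of 210 combinations were called by edgeR or by DESeq2, and 0 had an unadjusted p under 0.05 with the same fold, where 0.0291% of all tests across genes were above and 0.00182% below.

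Parp10 was lower with 3 inducing ligands than with 1. Its group means averaged 215 CPM over the 4 single inducing ligands, 199 CPM over their 6 pairs and 142 CPM over their 4 triplets. The libraries ran from 165 to 253 CPM with 1 ligand (median 217), from 122 to 285 CPM with 2 (median 203) and from 34.8 to 244 CPM with 3 (median 145), so the ranges overlapped. The log2 difference of pairs from single ligands, -0.16 ± 0.12 (SE, edgeR adjusted p = 0.43), did not pass. That of triplets from single ligands was -0.60 ± 0.14 (SE, edgeR adjusted p = 0.00023), a comparison added after the levels were seen, in which 11% of all tested genes were lower and 13.8% higher. Replicate 2 of LPS + cGAMP + CpGB stood apart at 34.8 CPM, beside 157 and 149 CPM in the other libraries of that group, and without it the difference was -0.50. In the same comparison Parp12 (0.31 ± 0.08, adjusted p = 0.0013), Parp14 (0.21 ± 0.07, 0.0079) and Zc3hav1 (0.48 ± 0.17, 0.024) were higher in triplets. Parp9 gave 0.27 ± 0.12 (0.066) and Dtx3l -0.01 ± 0.09 (0.94), which did not pass. Differences between members were not tested. The Zc3hav1 call was lost without replicate 1 (0.32), 2 (0.54) or 3 (0.61) of all groups, that of Parp12 without replicate 3 (0.26) and that of Parp14 without replicate 1 (0.12). With totals alone, the calls of Parp14 (0.09, adjusted p = 0.34), Zc3hav1 (0.35, 0.11) and Parp12 (0.18, 0.078) were lost, and all 3 were lost after thinning. Without the filter those of Parp14 (0.21, 0.074) and Zc3hav1 (0.47, 0.097) were lost, and with DESeq2 that of Zc3hav1 (0.46, 0.051). Pairs already lay above single ligands for Parp14 (0.27 ± 0.06, edgeR adjusted p = 0.00015) and Parp12 (0.22 ± 0.07, 0.019), where 9.75% of all tested genes were higher. Zc3hav1, Parp9 and Dtx3l did not pass there. The Parp12 call in pairs was lost with any replicate number left out. Triplets were not tested against pairs as a set.

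Contrasts of single triplets with their own pairs went both ways for Parp10. LPS + SeV held 285, 258 and 207 CPM, and LPS + SeV + cGAMP 112, 115 and 158 CPM, a log2 difference of -0.94 ± 0.26 with no overlap (edgeR adjusted p = 0.016). That was the largest of the differences of this triplet from its pairs, and the smallest was -0.21. HMW + cGAMP, the second highest of the 64 groups for Parp10, held 241, 293 and 237 CPM, and adding LPS, PAM or CpGB changed it by -0.97 ± 0.24, -0.80 ± 0.24 and -0.69 ± 0.24 (adjusted p = 0.0015, 0.0084 and 0.043). Adding Zymosan (-0.72 ± 0.25, adjusted p = 0.066) or SeV (-0.25 ± 0.23, 0.85) did not pass. In the other direction, PAM + CpGB held 153, 96.2 and 112 CPM, and adding SeV (207, 257 and 289.5 CPM) raised it by 1.10 ± 0.28 (adjusted p = 0.0027) with no overlap, as did adding cGAMP, by 0.77 ± 0.29 (adjusted p = 0.040). HMW + cGAMP and LPS + SeV lie above, and PAM + CpGB below, most groups. All of them were chosen after their levels were seen, so the differences from them are a description.

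**Figure D4:**
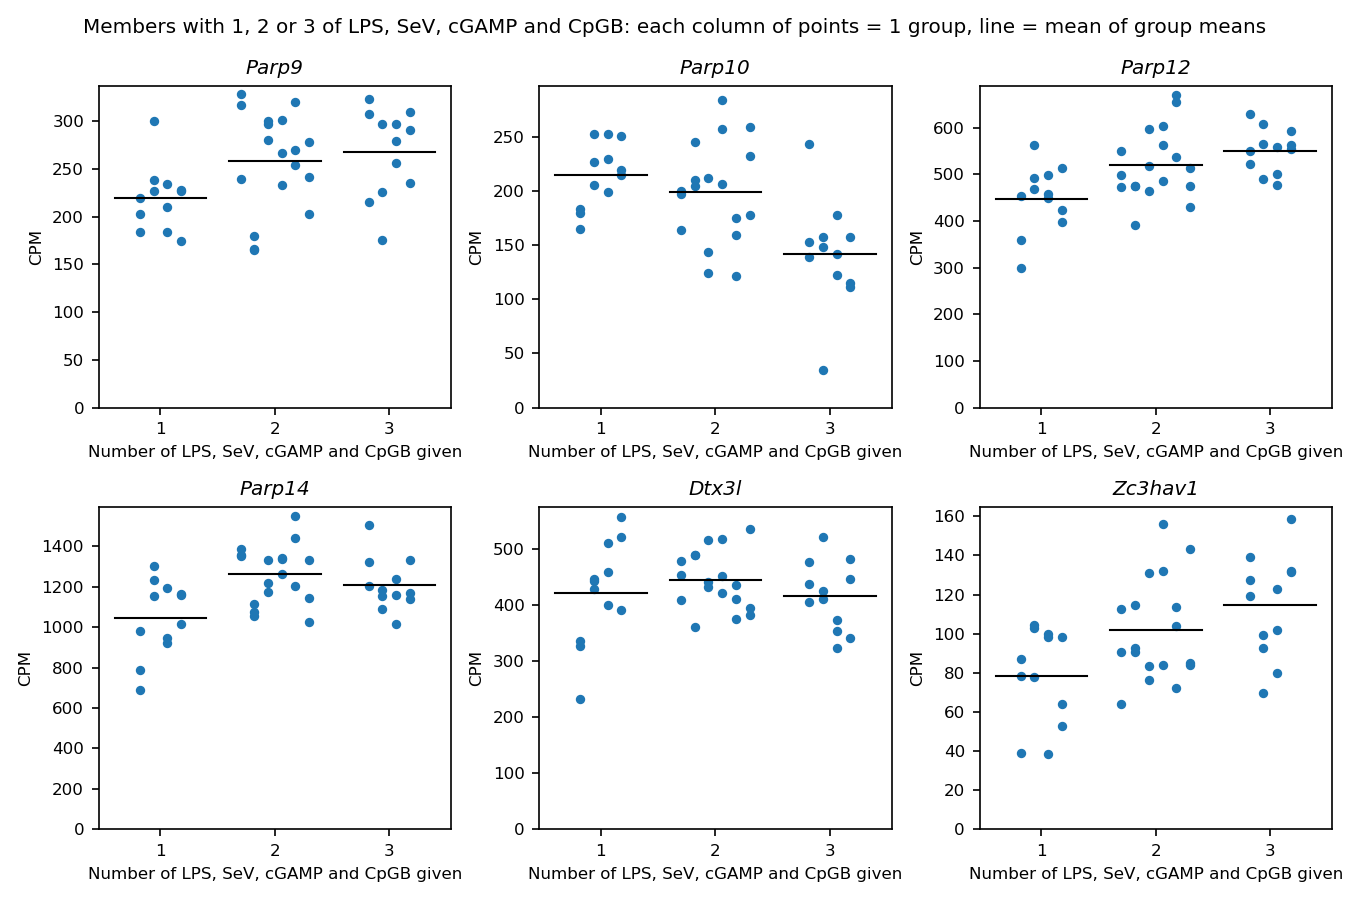
CPM of the 6 genes by the number of inducing ligands given (4 single ligands, 6 pairs and 4 triplets of LPS, SeV, cGAMP and CpGB); each column of points is 1 group of 3 libraries and the line is the mean of the group means. The line of Parp10 steps down from 215 to 199 and 142 CPM, and that of Zc3hav1 up from 78.3 to 102 and 114 CPM.

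PAM, HMW and Zymosan were also compared with and without, averaged over 18 backgrounds holding an inducing ligand. Zymosan raised Zc3hav1 by log2 0.45 ± 0.07 (SE, edgeR adjusted p = 2.8e-08), with a higher mean in 16 of 18 backgrounds, and lowered Parp10, at -0.31 ± 0.06 (adjusted p = 1.3e-05), with a lower mean in 16 of 18. PAM also lowered Parp10, at -0.28 ± 0.06 (adjusted p = 5.4e-05), in 12 of 18. These 3 differences passed under every setting tried, including each replicate number left out (0.42 to 0.50, -0.42 to -0.25 and -0.35 to -0.23). Zymosan also raised Parp14 (0.10 ± 0.03, adjusted p = 0.0053) and lowered Dtx3l (-0.13 ± 0.04, 0.013), PAM raised Parp9 (0.18 ± 0.05, 0.0048) and Parp12 (0.10 ± 0.04, 0.034), and HMW lowered Dtx3l (-0.15 ± 0.04, 0.026). Totals alone lost the calls of PAM on Parp9 (0.06) and Parp12 (-0.021) and of Zymosan on Parp14 (0.06), and RLE or DESeq2 that of PAM on Parp12 (0.06 with both). These 5 calls also depended on which replicates entered: with 1 replicate number left out, that of PAM on Parp12 was lost each time (0.06 to 0.10), those of PAM on Parp9 without number 1 (0.12) or 3 (0.14) and HMW on Dtx3l without 1 (-0.15) or 3 (-0.10), and those of Zymosan on Parp14 without 1 (0.07) and Dtx3l without 3 (-0.08). Of the 6 members, PAM raised 2 and lowered 1 (16.8% and 14.5% of all genes), HMW lowered 1 (2.25% of genes were higher and 1.08% lower), and Zymosan raised 2 and lowered 2 (18.8% and 18.4%). Relative to the mean log2 level of the other 5 members, Zc3hav1 was 0.61 higher with Zymosan and Parp10 0.42 lower, and Parp10 0.39 lower with PAM; differences between members were not tested.

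**Figure D5:**
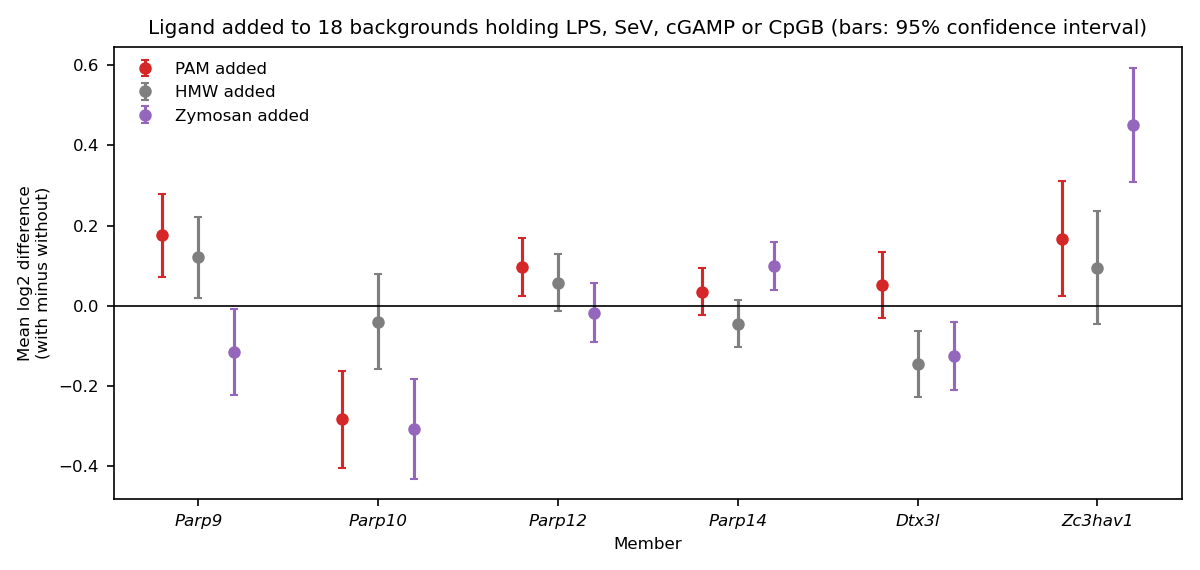
Mean log2 difference, with minus without PAM, HMW or Zymosan, over 18 backgrounds holding LPS, SeV, cGAMP or CpGB. Bars are approximate 95% confidence intervals, computed from edgeR's log2 change and F statistic. Zymosan raised Zc3hav1 by 0.45, and PAM and Zymosan lowered Parp10, at -0.28 and -0.31.

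Averaged over all 22 backgrounds of 0, 1 or 2 other ligands, LPS, SeV and cGAMP each raised all 6 members (29.6%, 20.6% and 28.2% of all genes were higher). The call of Parp10 with cGAMP was lost with RLE in place of TMM scaling (0.13, adjusted p = 0.064), with DESeq2 (0.13, 0.073), with totals alone (0.033, 0.65), after thinning libraries to equal totals (0.045, 0.73) and without replicate 3 of all groups (0.12, 0.23). That of Parp10 with LPS was lost with totals alone (0.11, 0.11) and after thinning (0.13, 0.30). Losses after thinning are listed here for Parp10 with cGAMP and LPS only. CpGB raised 5 (19%), HMW 5 (7.94%), PAM 4 (21.2%) and Zymosan 2 (21.3%), while PAM lowered 1 (18.7%) and Zymosan lowered 3 (20.4%). With totals alone all 4 rises with PAM lost their call: Parp9 (0.10, adjusted p = 0.11), Parp12 (0.082, 0.067), Parp14 (0.03, 0.51) and Dtx3l (-0.019, 0.73). Dtx3l with PAM was also lost with RLE (0.07) and DESeq2 (0.07), and Parp10 with HMW with RLE (0.16, adjusted p = 0.067), totals alone (0.15, 0.10) and DESeq2 (0.17, 0.090). Totals alone lost Dtx3l (0.077) and Zc3hav1 (0.16) with CpGB as well. With libraries left out, the call of Dtx3l with PAM was lost in 5 of 6 analyses (0.07 to 0.15), that of Parp10 with HMW in 3 of 6 (0.13 to 0.22) and that of Zc3hav1 with HMW in 2 of 6 (0.22 to 0.32). Dtx3l with CpGB, Parp10 with PAM and Parp10 with Zymosan each lost their call in 1 of 6. LPS gave the largest average for Parp12 (0.88 ± 0.04), Parp14 (0.81 ± 0.03), Parp9 (0.70 ± 0.05) and Dtx3l (0.50 ± 0.04). For Parp10 it was SeV (0.60 ± 0.06, beside 0.24 ± 0.06 with LPS and 0.17 ± 0.06 with cGAMP), and for Zc3hav1 it was cGAMP (0.75 ± 0.07). The lower calls of Zymosan on Parp9 (-0.13) and Dtx3l (-0.11) were each lost in 5 of 6 analyses with libraries left out, at -0.15 to -0.08 and -0.11 to -0.09 over the 6. Most of these 22 backgrounds already held an inducing ligand.

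Over the 64 group means of log2 CPM, Parp12 and Parp14 were the most alike of the members (Pearson r = 0.97), followed by Parp9 with Parp12 (0.93), and Zc3hav1 with Parp10 the least (0.52). Within the 56 groups holding an inducing ligand, Parp12 with Parp14 stood at 0.87, the overlapping Parp9 and Dtx3l at 0.53, and Parp10 at 0.23 or less with each of the others (-0.04 with Zc3hav1). These correlations describe groups that share libraries, depth and scaling across genes, and counting error is larger for Parp10 and Zc3hav1, which had 5636 and 3490 UMIs in all against 35608 for Parp14. Among the 5 non-member genes most like each member over the 64 groups were Znfx1 (0.98), Nt5c3 and Trim30a for Parp14, Tap1 (0.98), a peptide transporter of antigen presentation, Rtp4 and Trim30d for Parp12, Phf11b (0.93), Usp18 and Slfn8 for Parp9, Usp18 (0.93), the protease that removes ISG15, Nlrc5 and Mx1 for Dtx3l, Epsti1 (0.88), Tpst1 and Fcgr1 for Parp10, and Irgm1 (0.86) and Cd274 for Zc3hav1. Of Stat2, Irf9, Irf7 and Ifnb1, Irf7 was the most like Parp12 (0.97) and Parp14 (0.96).

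Other genes of ADP-ribosylation and of interferon signalling were read from lists chosen with earlier results known. Of 17 other PARP family members and ADP-ribose erasers, 7 passed the filter, which a gene can pass through the groups where it is high, so the counts that follow describe those genes and no more. LPS, SeV and cGAMP each raised 3 of them, CpGB 1, and PAM, HMW and Zymosan 0. Those 3 were Parp8, Parp11 and Tiparp, all mono-ADP-ribosyltransferases. Of all tested genes, LPS raised 14.6%, SeV 10.5%, cGAMP 11.7%, CpGB 10.8%, PAM 8.01%, HMW 0.953% and Zymosan 4.43%. Parp11 rose from 10.6 ± 9.74 CPM (SD, n = 3, 3 UMIs in all) in Ctrl to 120.2 ± 19.6 CPM with LPS (log2 3.26 ± 0.61, edgeR adjusted p = 2.6e-06), and Tiparp from 40.1 ± 10.6 to 247 ± 31.8 CPM with cGAMP (2.66 ± 0.42, adjusted p = 3.5e-08). Of 11 genes of NAD metabolism 4 passed, and Nampt, which makes the NAD precursor, and Cd38, which consumes NAD, passed both thresholds with every single ligand but HMW. With HMW, Nampt passed the test at 0.96 ± 0.19 (adjusted p = 0.00037), just short of the fold, and Cd38 stood at 0.62 ± 0.35 (adjusted p = 0.63). Cd38 was highest with PAM (79.2 ± 62.0 CPM in Ctrl, 751 ± 50.7 with PAM, log2 3.19 ± 0.26) and lower with cGAMP (164 ± 40.9 CPM, 1.00 ± 0.34), while Nampt was highest with cGAMP (219.9 ± 39.9 CPM in Ctrl, 1029 ± 57.2, 2.21 ± 0.18).

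Of 14 interferon signalling genes 13 passed. SeV (10.5% of all tested genes) and cGAMP (11.7%) raised 9 each, LPS (14.6%) 8, CpGB (10.8%) 6, PAM (8.01%) 4, and HMW (0.953%) and Zymosan (4.43%) 3 each. Ifnb1 was raised by SeV (251 ± 8.63 CPM against 11.97 ± 2.17 in Ctrl, log2 4.34 ± 0.59, edgeR adjusted p = 1.9e-10) and cGAMP (196 ± 78.8 CPM, 3.93 ± 0.63), whereas with LPS it stood at 13.4 ± 11.8 CPM at this time point, from 8 UMIs. Stat2 was raised by all 7 ligands, from 1.18 ± 0.34 with PAM to 3.06 ± 0.27 with LPS. Irf9 rose with LPS, SeV, cGAMP, CpGB and PAM, by between 1.11 ± 0.40 (cGAMP) and 1.50 ± 0.38 (SeV). Socs1, which restrains interferon receptor signalling, rose most with SeV (4.53 ± 0.45). All 7 single ligands thus raised both Stat2 and Parp14.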

How the data were processed

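Per the labels' protocols, barcoded cDNA of lysed cells was pooled, amplified, tagmented and sequenced. The authors deposited whole-number UMI counts per gene symbol without normalization. The submitters' processing notes name BWA 0.7.15 and mm10. The rule for collapsing UMIs and the treatment of reads matching several genes are not given in the sources used here. edgeR 4.0.16 ran under R 4.3.3: 4720 of 23481 genes (95.7% of counts) were kept by filterByExpr, scaled by TMM and fitted in 1 quasi-likelihood model with a coefficient per group (128 residual degrees of freedom), with Benjamini-Hochberg adjustment over genes within each contrast. CPM use the TMM-scaled totals. The SE of a log2 change was computed as its absolute value divided by the square root of edgeR's F statistic. Confidence intervals are that SE times a t quantile. Both are approximate, and unreliable where the log2 change is very small. Scripts were tested on simulated data. Named genes were the 6 members, the 5 non-member genes of highest Pearson r per member (log2 CPM, prior count 2), up to 3 rises and 3 falls per list, and Stat2, Irf9 and Ifnb1; some genes that this rule names are not reported here. The members and lists were chosen with earlier results of these data known. Alternatives were RLE factors, totals alone, no filter, DESeq2 1.42.0, thinned counts, a replicate block and left-out libraries. Leaving out single libraries of combinations, and the comparison by number of inducing ligands, were chosen after seeing the data.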

Additional observations from a re-analysis of the deposited data

How the results depend on the processing

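Of 103 single results that were called, 50 kept their call under every setting tried, and 2 turned sign. Thinning lost 45 of these calls, not all of which are listed above. The count of pairs above both ligands (8) was 5 with RLE factors, 3 with library totals alone, 4 with DESeq2 and 1 after thinning, and 2 to 5 when 1 replicate number was left out. The 8 effects of PAM, HMW or Zymosan in inducing backgrounds became 5 without the filter and 4 after thinning, and 4 to 7 with 1 replicate number left out. Negative interactions fell from 44 to 24 after thinning. The cause was not tested, apart from the fewer molecules that thinning leaves. The other counts stayed within 1.5 times, including those against Ctrl (344, and 251 to 352 over all settings) and those of triplets (0). Scaling by totals alone moved the median log2 change of all genes by -0.36, RLE factors by -0.16 and DESeq2 by -0.16. Relative to that shift, 374 of 378 differences from Ctrl were positive. Scaling by totals alone turned PAM on Parp12 in inducing backgrounds to -0.021 and PAM on Dtx3l over 22 backgrounds to -0.019.

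Among results not called, Zc3hav1 with PAM turned to -0.040 with totals alone and to -1.97 after thinning (-0.38 to 1.10 with libraries left out), Parp10 with Zymosan to -0.0034 after thinning, and Dtx3l in inducing triplets to 0.080 after thinning. With a library or replicate left out, Zc3hav1 with HMW ranged from -0.026 to 1.39, Parp9 with Zymosan from -0.78 to 0.26 and Dtx3l in inducing triplets from -0.085 to 0.085. Replicate numbers were not treated as pairs, since the labels name no shared source and 0.116% of same-numbered pairs had r over 0.1, with a mean r of 0.0083. Still, 167 of the libraries in the 64 groups of 3, each with 3 numbers to be closest to, were closest to their own, a hint from the data only. With a replicate block, calls against Ctrl stayed at 344, pairs at 8, interactions became 46, and 0 of the 103 single calls was lost. Depth limits Ctrl most, where Zc3hav1 rested on 7 UMIs.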
